A study of Homo sapiens with 28 samples.

Results

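The regions described here are stretches of the genome that carried an acetylated histone peak in both lists named for TAZ-CAMTA1 and no peak in either list named for the empty vector. A region was kept when at most 2 of the 4 lists named for TAZ4SA or YAP5SA also had a peak in it. The rule kept 44 of 138757 merged regions, which is 44 of the 17057 regions (0.258%) with a peak in both lists named TAZ-CAMTA1. The number rested on single libraries. It was 156 without the first list named empty vector, 787 without the first TAZ-CAMTA1 list and 2536 without the second. Without 1 TAZ-CAMTA1 list, a peak in the remaining one was enough. With the same number of peaks taken from every list the rule kept 235. The peaks of these 44 regions were weaker than those of the other regions in both lists: their median fold enrichment was 3.72 in the first TAZ-CAMTA1 list and 3.61 in the second, against 7.19 and 5.79. Of the 44 regions, 24 also had a peak in at least 1 of the 6 lists named for CAMTA1, TFE3 or YAP-TFE3, which the rule did not read. That is 54.5%, against 31.8% of all merged regions, 10% of regions with a peak in 1 TAZ-CAMTA1 list and otherwise within the rule, and 99.2% of the other regions in both.

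Acetylation of lysine 27 on histone H3 (H3K27ac) marks active enhancers and promoters, and is written by histone acetyltransferases. TAZ and YAP are transcriptional coactivators of the Hippo pathway that reach DNA through TEAD transcription factors. TAZ-CAMTA1 is the fusion protein of most epithelioid haemangioendotheliomas and joins the N terminus of TAZ to the C terminus of CAMTA1, a calmodulin-binding transcription activator. YAP-TFE3 joins YAP to TFE3, a transcription factor of the MiT family, in a smaller group of these tumours.

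H3K27ac was measured by chromatin immunoprecipitation and sequencing in SW872, an established liposarcoma cell line. The cells were stably transduced with the empty vector, TAZ4SA, CAMTA1, TAZ-CAMTA1, YAP5SA, TFE3 or YAP-TFE3, with 2 libraries for each, where TAZ4SA and YAP5SA carry serine-to-alanine changes that remove inhibitory phosphorylation sites. The study's methods give near-confluent growth for every construct in this assay, while the sample labels put the CAMTA1 cells below confluence at collection, so whether density differed is not settled by the sources. The antibody field of the labels gives H3K27ac, as do the study's methods for this assay, while the protocol text of the labels describes an antibody against the Flag tag. The matched input libraries were not analysed here.

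The construct in the peak names and the construct in the sample label differed in all 14 lists, and each pair of lists was shifted as a pair. The lists named TAZ-CAMTA1 are attached to samples labelled CAMTA1, and the lists named empty vector to samples labelled TAZ4SA. The lists named CAMTA1 belong to samples labelled empty vector, those named TAZ4SA to TAZ-CAMTA1, those named TFE3 to YAP5SA, those named YAP5SA to YAP-TFE3 and those named YAP-TFE3 to TFE3. Which naming is right could not be settled from the lists. Below, a list is called by the name it carries, with 1 and 2 for the replicate numbers of the labels (the names of the TAZ4SA and YAP-TFE3 lists carry 2 and 3), and a set chosen by the labels is described at the end.

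The lists also differed in length. Those named empty vector were the longest, with 102009 and 98992 peaks, against 47974 and 31280 in the lists named TAZ-CAMTA1. The other 10 lists held 5721 to 57505 peaks, the shortest being YAP-TFE3 1. The lists carry no read totals, so the depth of each library is unknown, and a missing peak means only that none passed the peak caller's threshold.

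The rule narrowed the 17057 regions mainly at the empty vector. Both lists named empty vector had a peak in 16867 of them (98.9%), 1 had a peak in 137 (0.803%), and neither had in 53 (0.311%). Of those 53, 27 had no peak in the 4 lists named TAZ4SA or YAP5SA, 9 had a peak in 1 of them, 8 in 2, 8 in 3 and 1 in all 4. Applied to the other constructs, the same rule gave 138 of 21103 regions (0.654%) for the lists named CAMTA1, 39 of 16830 (0.232%) for TFE3, and 0 of 4344 for YAP-TFE3. The count for TAZ-CAMTA1 thus lay between those of the CAMTA1 and TFE3 lists.

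The values that follow for the TAZ-CAMTA1 lists come from the peaks that chose the regions and are a description. A peak's fold enrichment is its pileup of fragments at the summit over the local background, as the peak caller wrote it. In TAZ-CAMTA1 1 it ran from 2.30 to 8.01 over the 44 regions, with a mean of 3.87, and the median over the 17013 other regions in both lists was 7.19. In TAZ-CAMTA1 2 it ran from 2.90 to 5.28, with a mean of 3.71, against a median of 5.79 for the others. The fold was higher in TAZ-CAMTA1 1 for 23 of the 44 regions, so neither list was the stronger throughout. Regions with a peak in only 1 TAZ-CAMTA1 list and otherwise within the rule (3218) had medians of 3.08 and 3.52, below those of the 44. The level depended on the choice of peaks: the members' median fold over both lists, 3.67, was 5.17 among the regions chosen from peaks with a −log10 q of at least 5, and 10.2 among those chosen from the same number of peaks in every list.

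**Figure D1:**
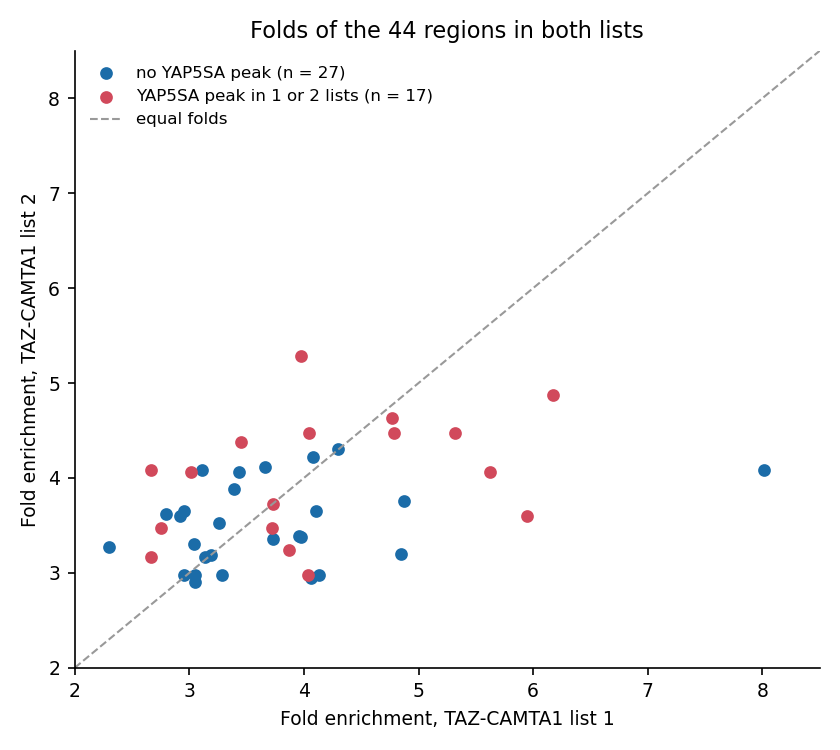
Fold enrichment of each of the 44 regions in TAZ-CAMTA1 list 1 (horizontal axis) and list 2 (vertical axis), each point being a region, coloured by whether a YAP5SA list had a peak there. Most points sit below a fold of 5 in both lists, and 23 of the 44 lie on the side where list 1 is higher.

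Few fragments lay behind each peak. The summit pileup worked back from the fold and the p-value was a median of 15 fragments (10 to 32) in TAZ-CAMTA1 1 and 10 (7 to 17) in TAZ-CAMTA1 2, against 33 and 17 in the other regions of both lists. The local background was close in both kinds of region, with medians of 3.37 and 3.55 fragments in list 1 and 1.94 and 2.02 in list 2. The 44 regions therefore differed from the others in summit height more than in background. By p-value, 26 of the 44 ranked below the middle of TAZ-CAMTA1 1 and 41 below the middle of TAZ-CAMTA1 2. A −log10 q of at least 5 was reached by 20 regions in list 1, by 3 in list 2, and by 2 in both.

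The regions were narrower than the other regions in both TAZ-CAMTA1 lists, and wider than merged regions at large. Their median width was 823 bp (333 to 2494), against 4890 bp for the other regions in both TAZ-CAMTA1 lists, 373 bp for regions in 1 list and 602 bp for all merged regions. The order against all merged regions rested on needing both TAZ-CAMTA1 lists: without list 1 the median of the regions chosen was 350 bp and without list 2 it was 386 bp. With the same number of peaks in every list it was 3001 bp. The TAZ-CAMTA1 peaks overlapped directly in 41 of the 44, by a median of 310.5 bp over all 44, and in the other 3 a peak of another list joined them. The summits lay a median of 199.5 bp apart (5 to 1181) and within 250 bp of each other in 30 regions. In the lists named empty vector, 46235 peaks (45.3%) and 31146 peaks (31.5%) had a fold no higher than 3.60, the median over the 44 of their mean fold in both TAZ-CAMTA1 lists.

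The 10 regions below are those that ranked best in the weaker of their TAZ-CAMTA1 lists. Positions are in GRCh37, the build of the lists. Gene annotation and sequence of that build were not used here, so no gene or sequence is given.

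Region 1, chr17:10167713-10168763, had folds of 6.17 and 4.87 in TAZ-CAMTA1 1 and 2, with 26 and 17 summit fragments. It also had peaks in CAMTA1 1 (4.89), CAMTA1 2 (5.58), TFE3 2 (3.45) and YAP5SA 1 (3.47). The summits in the TAZ-CAMTA1 lists lay 7 bp apart, and a peak named empty vector began 531 bp away. Both CAMTA1 folds thus lay between the TAZ-CAMTA1 folds.

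Region 2, chr5:137566344-137567035, had TAZ-CAMTA1 folds of 3.66 and 4.12, and TFE3 folds of 2.82 and 3.18. It was the best-ranked region held by both TFE3 lists and by none of the CAMTA1 or YAP-TFE3 lists. Region 4, chr5:136065060-136065701, lay 1500642 bp away on the same chromosome, with TAZ-CAMTA1 folds of 4.08 and 4.22 and 1 further peak, in YAP-TFE3 2 (3.59). Neither had a peak in the TAZ4SA or YAP5SA lists. Their nearest empty vector peaks were 16162 and 80608 bp away.

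Region 3, chr3:141427013-141427535, had TAZ-CAMTA1 folds of 4.77 and 4.63. Its other peaks were in TFE3 1 (3.84), YAP-TFE3 2 (5.23), YAP5SA 1 (4.08) and YAP5SA 2 (4.57). All 6 folds thus lay between 3.84 and 5.23. Region 8, chr3:151023194-151024800, had folds of 4.78 and 4.47, with 5 bp between its summits. It had a weak peak in CAMTA1 2 (2.96) and higher ones in YAP5SA 1 (8.73) and YAP5SA 2 (5.41), so its highest folds were not in the TAZ-CAMTA1 lists.

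Region 5, chr4:90673170-90674884, was held by more lists than any other of the 44. Its TAZ-CAMTA1 folds were 3.97 and 5.28, and it had peaks in CAMTA1 1 (6.05), CAMTA1 2 (2.50), TFE3 1 (5.09), TFE3 2 (3.95) and YAP-TFE3 2 (8.22). Its highest fold was 9.03, in YAP5SA 1, with 6.65 in YAP5SA 2. Region 9, chr4:93011552-93012621, had TAZ-CAMTA1 folds of 5.32 and 4.47 and was highest in TFE3 1 (6.86) and TFE3 2 (5.36). It also had peaks in CAMTA1 2 (3.55), YAP-TFE3 2 (4.16), YAP5SA 1 (4.5) and YAP5SA 2 (3.66). Both stood far from any empty vector peak, at 639869 and 2115695 bp, and far from any other TAZ-CAMTA1 peak. At both sites, then, a peak was called in at least 6 of the other 12 lists.

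Region 6, chr17:41483699-41485496, had TAZ-CAMTA1 folds of 4.04 and 4.47 and YAP5SA folds of 3.24 and 3.42. It was the best-ranked region without a peak in any CAMTA1, TFE3 or YAP-TFE3 list. Region 7, chr1:75604625-75605536, had a fold of 4.30 in both TAZ-CAMTA1 lists and a peak in CAMTA1 2 (3.47). Region 10, chr21:18898756-18901249, was the widest of the 44 and had the highest single fold, 8.01 in TAZ-CAMTA1 1, with 4.09 in TAZ-CAMTA1 2. Its summits lay 1181 bp apart, so the peaks share the region more than the position, and it was also held by CAMTA1 2 (3.0) and YAP-TFE3 2 (5.23). The best-ranked region held by both CAMTA1 lists and by neither TFE3 nor YAP-TFE3 was region 22, chr12:16505101-16506516. It had TAZ-CAMTA1 folds of 3.01 and 4.06, CAMTA1 folds of 3.11 and 3.84 and a YAP5SA 1 fold of 4.77, and its TAZ-CAMTA1 peaks did not overlap directly.

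**Figure D2:**
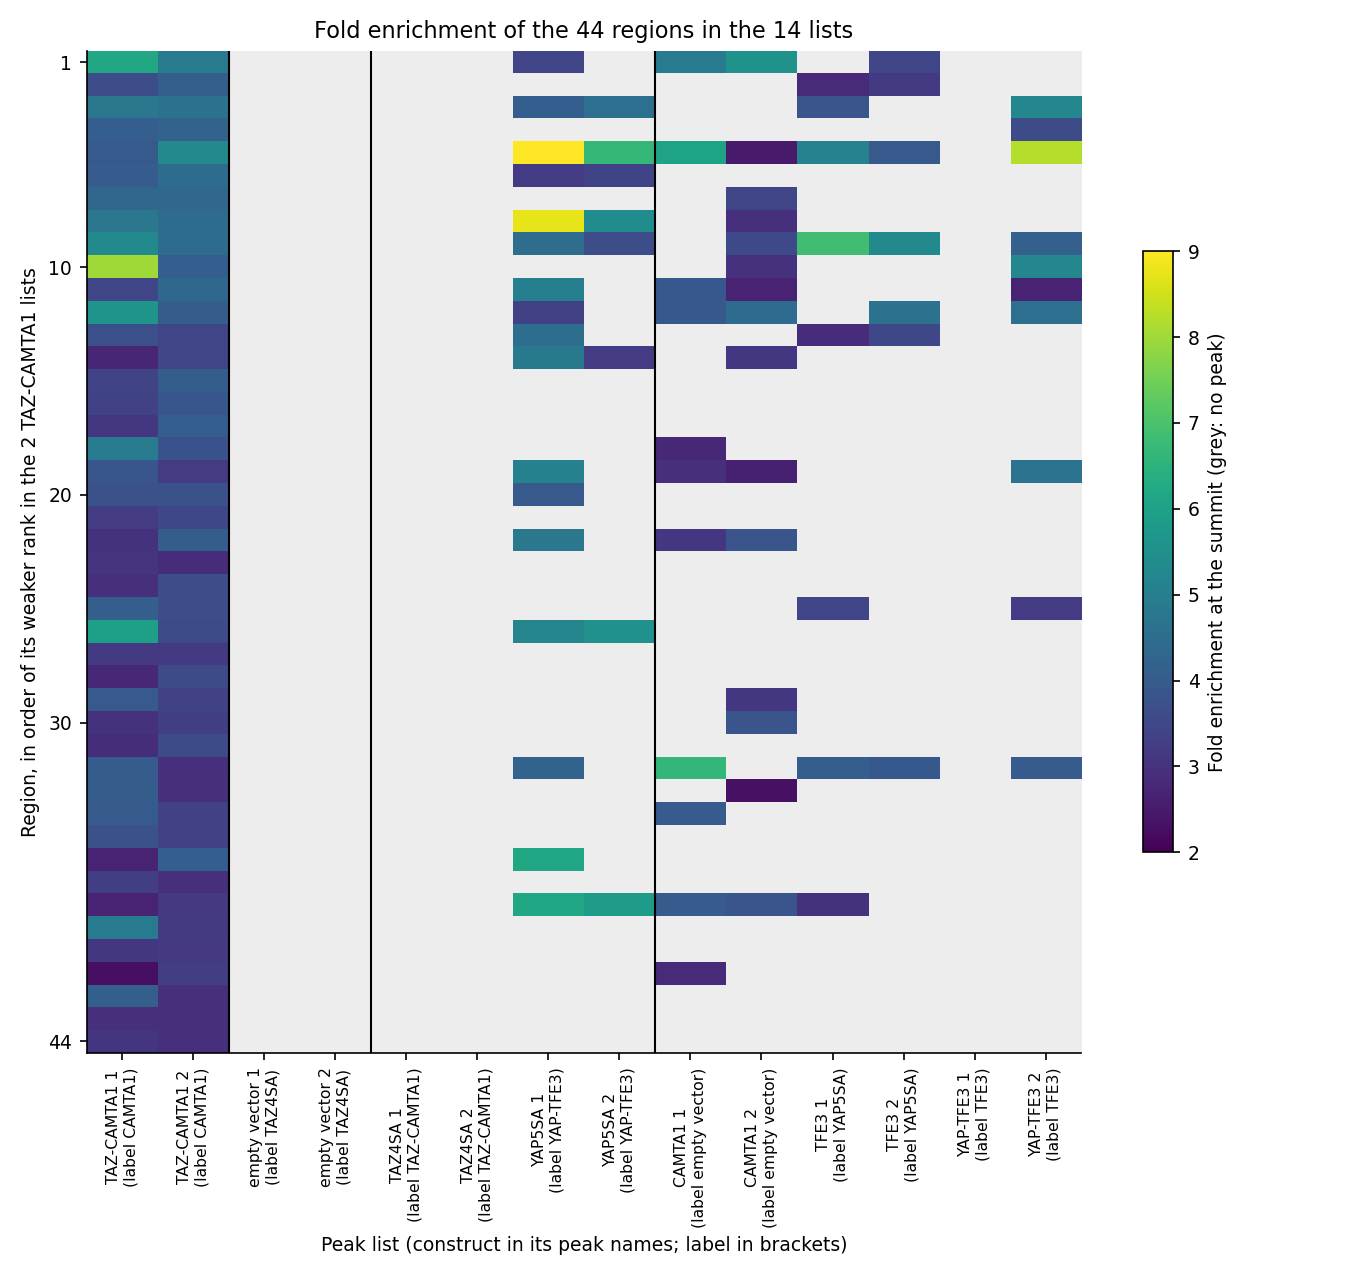
Fold enrichment of the 44 regions (rows, in order of their rank in the weaker TAZ-CAMTA1 list) in the 14 peak lists (columns, with the construct in the list name and the label in brackets). Grey means no peak, as in every cell of the empty vector and TAZ4SA lists, and the most often filled columns outside TAZ-CAMTA1 are YAP5SA 1 (17 regions) and CAMTA1 2 (15 regions).

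Outside the lists that the rule fixed, presence varied by list. CAMTA1 1 held 11 of the 44 regions (25.0%, 95% Wilson interval 14.6 to 39.4), where it held 18.3% of all merged regions, and CAMTA1 2 held 15 (34.1%, 21.9 to 48.9), against 21.7%. TFE3 1 held 8 (18.2%, 9.51 to 32.0) and TFE3 2 held 7 (15.9%, 7.93 to 29.4), against 15.8% and 14.4% of all regions. YAP-TFE3 2 held 10 (22.7%, 12.8 to 37.0), against 20.8%, and YAP-TFE3 1 held 0, against 3.19%. These intervals cover counting error over regions only. For 4 of the 5 lists that held a region the interval includes the share of all merged regions, and for CAMTA1 2 it starts just above it.

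The comparison depends on the reference. The 3218 regions with a peak in 1 TAZ-CAMTA1 list and otherwise within the rule had a peak in the CAMTA1 lists in 2.86% and 3.82% of cases, in the TFE3 lists in 1.77% and 1.34%, and in the YAP-TFE3 lists in 0.0622% and 3.45%. The 17013 other regions in both TAZ-CAMTA1 lists had one in 93.4% and 95.8%, in 90.0% and 88.0%, and in 25.3% and 95.6%, in the same order. The 44 thus lay between those sets in 5 of the 6 lists. All 3 sets differ in width and summit height, which were not matched.

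**Figure D3:**
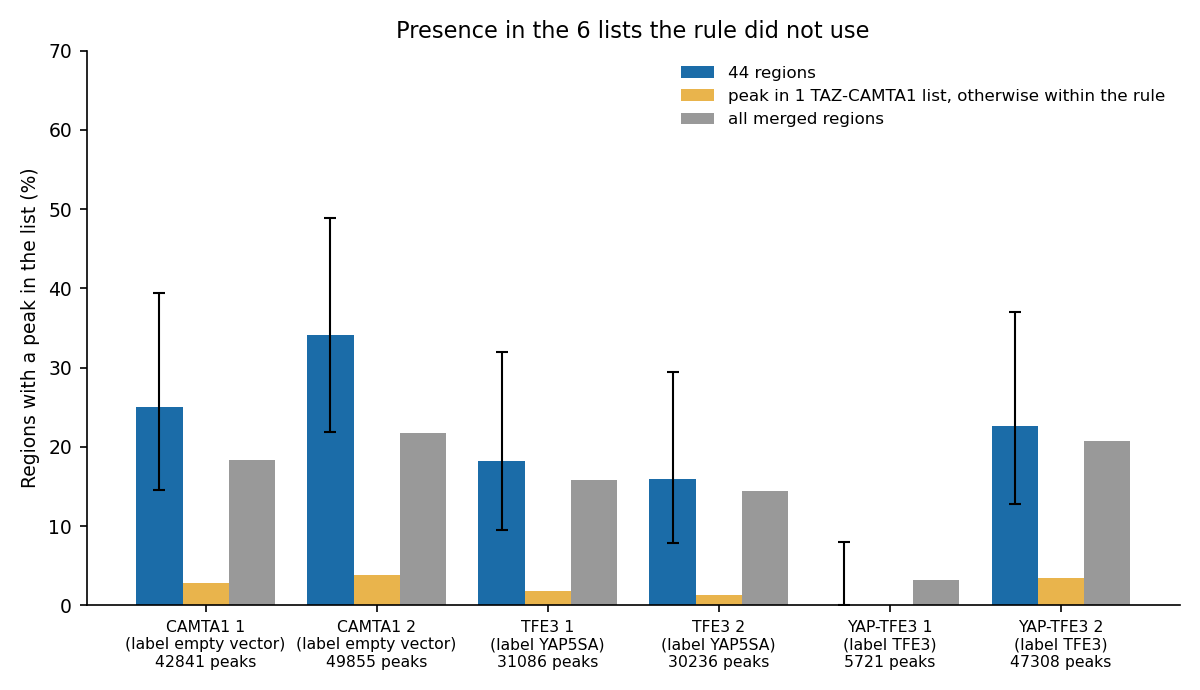
Percent of regions with a peak in each of the 6 lists not used by the rule, for the 44 regions (blue, with 95% Wilson intervals), regions in 1 TAZ-CAMTA1 list (yellow) and all merged regions (grey), with the number of peaks in each list. The blue bars of the CAMTA1 lists are the highest, at 25.0% and 34.1%, and YAP-TFE3 1, the shortest list, has none.

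The shares were compared between constructs over lists, not over regions. The CAMTA1 lists held 29.5% ± 6.43 of the 44 (SD, n = 2), against 14.2% ± 9.88 for the other 4 (SD, n = 4), a difference of 15.3 percentage points (exact two-sided permutation test, p = 0.2, Benjamini-Hochberg adjusted p = 0.5 over 3 tests). The TFE3 lists held 17.0% ± 1.61, against 20.5% ± 14.5, a difference of -3.41 points (exact permutation p = 0.8, adjusted 0.8). The YAP-TFE3 lists held 11.4% ± 16.1, against 23.3% ± 8.17, a difference of -11.9 points (exact permutation p = 0.333, adjusted 0.5). With 2 lists against 4 the smallest p is 0.0667, so no difference could pass 0.05, and the test cannot say whether the constructs differ. The YAP-TFE3 difference rested on YAP-TFE3 1, the shortest list, and was -0.568 points without it. It was -23.3 without YAP-TFE3 2. The directions depended on the processing. The CAMTA1 difference turned to -7.77 points with the same number of peaks taken from every list. It was 1.21 and 2.28 without TAZ-CAMTA1 1 or 2, and 6.09 without empty vector 1. The TFE3 difference turned positive under 5 other treatments of the peaks, at 1.61 to 13.6 points, and also without empty vector 1 (6.09) or CAMTA1 2 (1.11). By the labels the differences were -35.0 points for CAMTA1, -32.85 for TFE3 and 67.9 for YAP-TFE3. Those are other contrasts, since the labels chose 522 other regions and gave each construct other lists.

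Lists of the same construct shared some of these regions. Of the 19 regions held by either CAMTA1 list, 7 (36.8%) were held by both, where it was 61.3% of all merged regions, 15% of regions in 1 TAZ-CAMTA1 list and 94.3% of the other regions in both. For TFE3 it was 5 of 10 (50%), against 67.1%, 13.6% and 89.8%. For YAP-TFE3 it was 0 of 10, against 15%, 0 of 113 regions, and 26.4%. The share held by both lists was lower for the 44 than for all merged regions with each of the 3 constructs. This difference was not tested.

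Counted by region, 20 of the 44 were held by 0 of the 6 lists, 10 by 1, 6 by 2, 4 by 3, 3 by 4 and 1 by 5. Of the 24 held by any, 13 were held by lists of 1 construct. These were CAMTA1 for 10, TFE3 for 2 and YAP-TFE3 for 1. Lists of 2 constructs held 7 regions and lists of all 3 held 4. No region was held by all 6 lists, and none by both YAP-TFE3 lists. The split by construct was not counted for all merged regions. Of those, the CAMTA1 lists held 18.3% and 21.7%, the TFE3 lists 15.8% and 14.4% and the YAP-TFE3 lists 3.19% and 20.8%. No preference among constructs is read from the split.

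The lists that entered the rule were uneven. No TAZ4SA list had a peak in any of the 44, although these lists held 10.9% and 23.5% of all merged regions. YAP5SA 1 had a peak in 17 and YAP5SA 2 in 8, and all 17 regions with a TAZ4SA or YAP5SA peak were therefore in YAP5SA 1. The rule limits these counts, so nothing is read from them. Median folds at the regions held were 4.51 and 4.99 in the YAP5SA lists, 3.94 and 3.13 in CAMTA1, 3.65 and 3.92 in TFE3, and 4.36 in YAP-TFE3 2.

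The next values describe the regions with and without a YAP5SA peak, which the rule read, and a YAP5SA peak can widen a merged region by construction. The 17 with one had a median width of 1382 bp and a median distance of 11977 bp to the nearest empty vector peak, and the 27 without had 654 bp and 617 bp. Median folds were 3.97 and 4.06 in TAZ-CAMTA1 1 and 2 with a YAP5SA peak, and 3.39 in each list without. Of the 17, 13 were held by at least 1 CAMTA1, TFE3 or YAP-TFE3 list, and of the 27, 11 were. Over all merged regions the share was 31.8%, which was not split by YAP5SA peak. The difference was not tested. Of the 28 regions with a peak in any of the other 12 lists, 14 ranked better in another list than in both TAZ-CAMTA1 lists, with rank taken as a percent of the list's length. Up to 12 lists were thus set against 2, and the share was not counted for other regions.

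The remaining 16 regions had a peak in the TAZ-CAMTA1 lists and in none of the other 12. Since no peak of another list could widen them, their width is not comparable with that of the rest. They had a median width of 597.5 bp (381 to 868), median folds of 3.17 and 3.28 and median summits of 13.5 and 8.5 fragments. Their median distance to the nearest empty vector peak was 1062 bp (16 to 26022), and it was at most 10000 bp for 13 of the 16.

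Distance to the nearest peak named empty vector spanned from 16 to 2115695 bp over the 44, with a median of 2515 bp, against 1097 bp for regions in 1 TAZ-CAMTA1 list. It was at most 1000 bp for 19 regions (43.2%, against 48.5%), between that and 10000 bp for 9 (20.5%, against 35.3%), and over 10000 bp for 16 (36.4%, against 16.2%). Of the 19, 4 were held by 2 or more of the CAMTA1, TFE3 and YAP-TFE3 lists, as were 1 of the 9 and 9 of the 16 beyond 10000 bp. Of all 44 it was 14, against 19.1% of all merged regions and 2.24% of regions in 1 list. Those 2 shares were not split by distance, and the difference by distance was not tested. The 3 regions over 500000 bp away were regions 5, 8 and 9, and all had a YAP5SA peak.

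**Figure D4:**
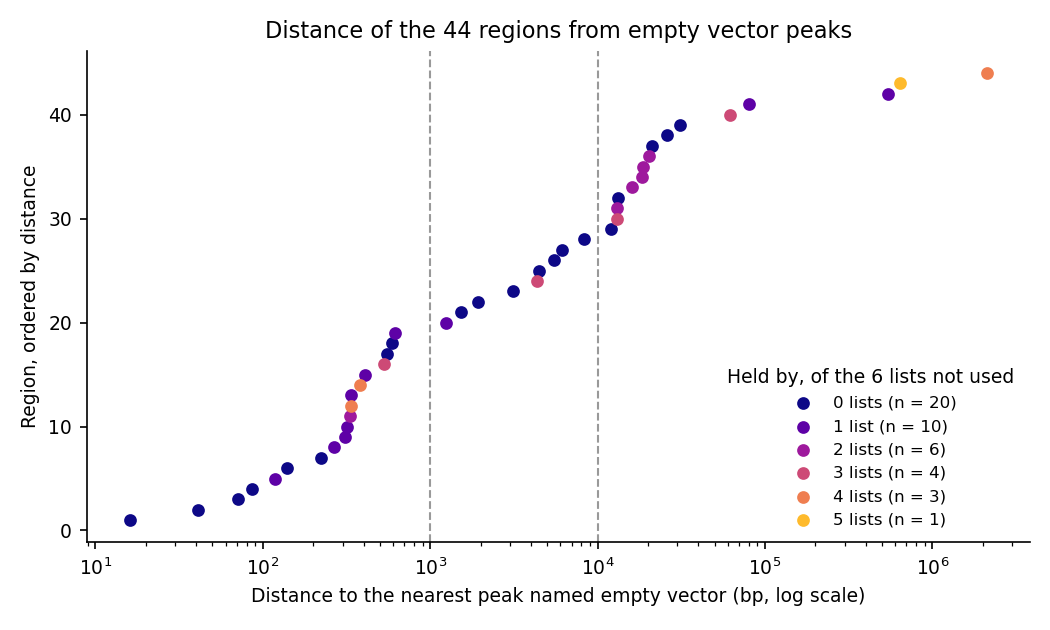
Distance of each of the 44 regions to the nearest peak named empty vector (horizontal axis, bp on a log scale), ordered by distance, with colour for the number of CAMTA1, TFE3 and YAP-TFE3 lists that held the region. The 19 regions within 1000 bp include 4 held by 2 or more lists, the 9 from there to 10000 bp include 1, and the 16 beyond 10000 bp include 9.

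The regions were scattered over 18 chromosomes, and only 1 pair lay within 1000000 bp of each other. Chromosomes 2 and 5 held 5 each (11.4%, against 7.55% and 5.76% of the other regions in both TAZ-CAMTA1 lists). The chromosome 5 regions had a local background of 4.92 fragments in TAZ-CAMTA1 1 (4.39 to 7.86), against 3.32 (2.49 to 7.18) for the other 39. The other regions of both lists on chromosome 5 had a median background of 5.55, so it was higher there for both kinds of region.

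At the limit of the rule, the 8 regions with a peak in 2 of the 4 TAZ4SA and YAP5SA lists had median folds of 4.40 (2.67 to 5.94) and 4.47 (3.17 to 5.28), and 6 were held by at least 1 of the CAMTA1, TFE3 and YAP-TFE3 lists. The 9 regions just outside, with a peak in 3 or 4, had 3.96 (2.67 to 5.48) and 3.84 (2.98 to 5.50), and 8 were held. Over all merged regions 31.8% were held, a share not split by the number of TAZ4SA and YAP5SA lists. The difference was not tested.

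When the same rule was applied by the labels, it kept another set. Of the 14253 regions with a peak in both lists labelled TAZ-CAMTA1 (named TAZ4SA), 522 (3.66%) had no peak in the lists labelled empty vector (named CAMTA1) and a peak in at most 2 of the 4 labelled TAZ4SA or YAP5SA. None of the 522 was among the 44. Their median width was 2146 bp, and their median distance to a labelled empty vector peak was 23010 bp, with 346 (66.3%) beyond 10000 bp. The lists labelled empty vector are shorter than those named so, with 42841 and 49855 peaks, so these distances are not comparable with those of the 44. Median folds were 3.88 (2.27 to 10.1) in the first labelled list and 5.14 (2.40 to 13.9) in the second, below the 5.23 and 10.4 of the other regions in both.

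The 522 regions were held mostly by the lists labelled YAP-TFE3 (named YAP5SA). Those lists held 447 (85.6%) and 350 (67.0%), against 28.5% and 18.6% of all merged regions, 35.9% and 17.8% of 8875 regions in 1 labelled TAZ-CAMTA1 list, and 99.2% and 96.6% of the other regions in both. The lists labelled CAMTA1 (named TAZ-CAMTA1) held 67 (12.8%) and 14 (2.68%), against 21.3% and 13.6% of all merged regions, and those labelled TFE3 (named YAP-TFE3) held 0 and 96 (18.4%), against 3.19% and 20.8%. Over the 6 lists labelled CAMTA1, TFE3 or YAP-TFE3, those labelled YAP-TFE3 exceeded the other 4 by 67.9 percentage points, with an exact two-sided permutation p of 0.0667, the smallest possible, and an adjusted p of 0.2.

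The first of these in order of rank in the weaker list labelled TAZ-CAMTA1 was chr18:76616082-76619244, with folds of 9.59 and 13.5 in the lists labelled TAZ-CAMTA1 and 9.03 and 5.99 in those labelled YAP-TFE3. The next was chr9:32429333-32432732, with 8.20 and 9.49, and 8.57 and 4.76. The third was chr1:2382370-2385599, with 7.64 and 12.4, and 9.25 and 6.32. In the lists labelled YAP-TFE3, all 3 had folds above the medians of the regions held there, 5.25 over 447 and 4.65 over 350. These 3 were named after their values were seen.

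**Figure D5:**
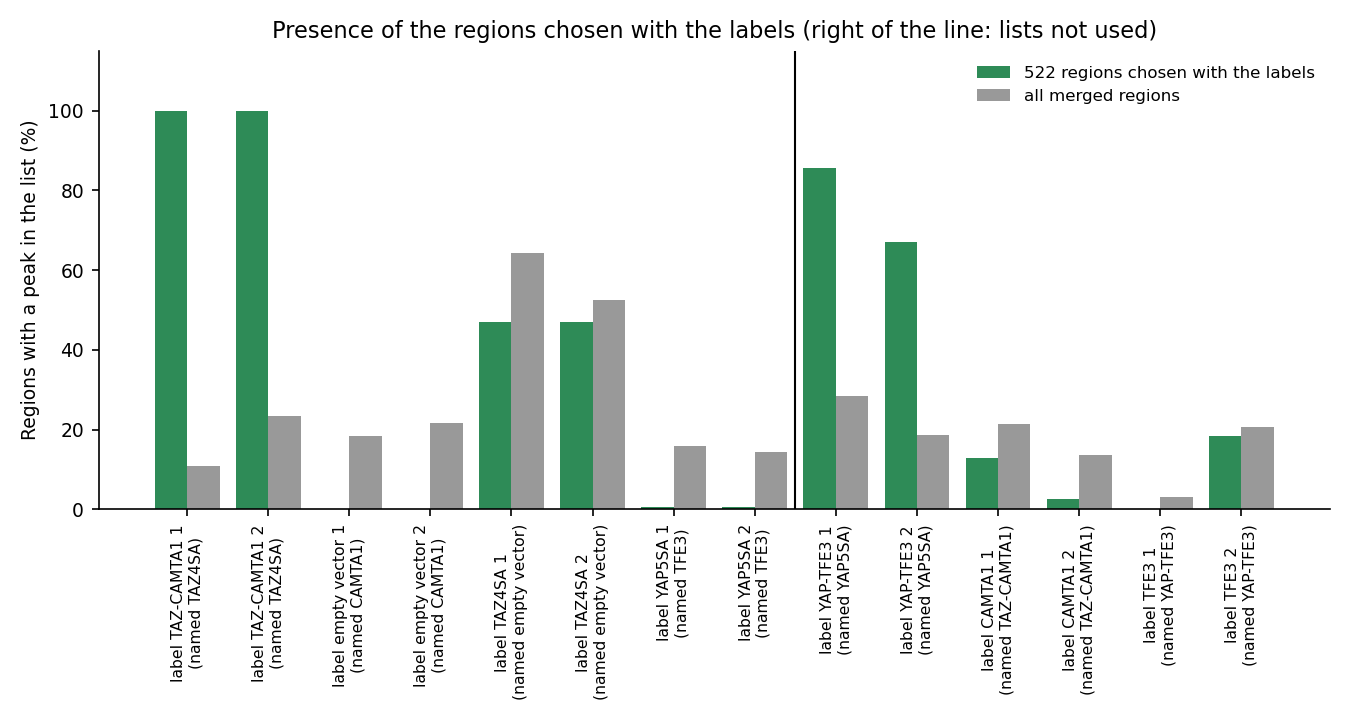
Percent of the 522 regions chosen by the labels (green) and of all merged regions (grey) with a peak in each of the 14 lists, ordered by label. The lists left of the line fixed the choice, and right of it the lists labelled YAP-TFE3 stand highest, at 85.6% and 67.0%.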

How the data were processed

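The authors made 1 MACS2 list of narrow peaks for each of 14 libraries. Per the study's methods, reads were trimmed with Atropos, aligned to GRCh37 with BWA-MEM, and stripped of multi-mapping reads and greylist regions. The methods describe pooled replicates and a looser q limit, but the deposited lists are per library and their lowest −log10 q-value was 1.30 to 1.33. In the deposited files a peak carries a score, a fold (ratio of pileup to background) and its p-value and q-value, both as −log10. Per the methods, replicates were separate transductions.

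Peaks of all 14 lists that overlapped or touched were merged (Python 3.11.15, pandas 2.3.3, numpy 2.4.6, scipy 1.17.1, matplotlib 3.10.9). Where a list had several peaks in a region, the most significant was used. Summit fragments were the whole numbers that gave both the fold and the p-value (pseudocount 1, tolerance 0.01 in −log10 p). Named regions were the 10 best by their rank in the weaker TAZ-CAMTA1 list, plus, among the 6 other lists, the best held by both lists of 1 construct and no other, by all 6 or by none, with chromosome 8 counted but not named. The members and lists were chosen with earlier results of these data known. Scripts were tested on simulated data. Libraries with the same number in the labels, which the names of the TAZ4SA and YAP-TFE3 lists do not share, were checked for pairing over 21 pairs of constructs: the median correlation of their deviations was -0.00661 and 1 pair was over 0.1, so they were not treated as paired.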

Additional observations from a re-analysis of the deposited data

How the results depend on the processing

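The count of 44 rests on the settings and on single libraries. With −log10 q limits of 2 and 5 it fell to 36 and 11. It was 235 with 5721 peaks taken from every list, 31 with peaks within 1000 bp stitched, and 1829 with windows of 250 bp around the summits. It was 27 with no peak allowed in the TAZ4SA and YAP5SA lists, 53 with no limit there, 3262 with a peak in either TAZ-CAMTA1 list, and 522 by the labels. Leaving out 1 library gave 43 to 2536. It was 156 without empty vector 1 (labelled TAZ4SA), 787 without TAZ-CAMTA1 1 and 2536 without TAZ-CAMTA1 2 (both labelled CAMTA1). Without 1 TAZ-CAMTA1 list a peak in the remaining one was enough, and without empty vector 1 only empty vector 2 had to lack a peak. What else moved the count was not tested.

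The CAMTA1 difference of 15.34 points turned to -7.766 with equal list lengths. It was 27.27 at the q limit of 5, 4.032 with stitching and 9.259 with no TAZ4SA or YAP5SA peak. With a peak in either TAZ-CAMTA1 list it was 1.87. Without 1 library it ran from 1.207 to 20.35, with 1.207 and 2.277 without TAZ-CAMTA1 1 and 2 and 6.09 without empty vector 1. By the labels, which choose other regions and give each construct other lists, it was -35.01. The TFE3 difference of -3.409 turned to 2.083 and 6.818 at the q limits of 2 and 5, 13.62 with equal lengths, 1.613 with stitching, 2.16 with summit windows and 0.1203 as a ratio to the share of all regions. Without 1 library it ran from -10.23 to 6.09, and turned positive without CAMTA1 2 (1.111) and without empty vector 1 (6.09). The YAP-TFE3 difference of -11.93 was 67.86 for the other regions and lists that the labels choose. It was -34.09 at the q limit of 5, -5.645 with stitching, -5.851 with equal lengths and -4.63 with no TAZ4SA or YAP5SA peak. With a peak in either TAZ-CAMTA1 list it was -0.843. Without 1 library it ran from -23.3 (without YAP-TFE3 2) to -0.5682 (without YAP-TFE3 1), with -0.7942 and -1.035 without TAZ-CAMTA1 1 and 2. The lowest adjusted p under any alternative was 0.2. With the replicate number of the labels as a block, the differences were the same, 15.34, -3.409 and -11.93 points, with exact permutation p of 0.222, 0.778 and 0.333, where the smallest possible is 0.111, so neither design could give a call.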
